A study of Homo sapiens with 12 samples.

Results

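A set of 10 genes of the mitochondrial apoptosis machinery were followed in PANC-1 cells, an established human pancreatic cancer line, after a short exposure to rapamycin. They were chosen by symbol: MCL1, BCL2L1 and BCL2, which restrain cell death; BAX and BAK1, the effectors; BCL2L11 (BIM), BID, BAD and PMAIP1 (NOXA), which carry the death signal; and XIAP, a caspase inhibitor. All 10 were among the 20212 protein-coding genes of the count table. Cells received DMSO as the vehicle or 50 nM rapamycin, an inhibitor of the mTORC1 kinase complex, for 60 min. Each treatment had 3 replicates, called cultures here, and each culture gave 1 library of ribosome-protected fragments (RF) and 1 of total RNA. Translational efficiency (TE) is the RF level of a gene relative to its total RNA. The labels number the replicates and do not say that they were grown apart, so p-values measure the spread between these samples, which may be technical. The study asked how mTORC1 inhibition alters mRNA translation, and it did so here in tumour cells of a single line in culture.

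BCL2 family proteins meet on the outer mitochondrial membrane. BAX and BAK1 form the pores through which cytochrome c leaves, the anti-apoptotic members hold them and the BH3-only proteins in check, and the BH3-only proteins release that hold or switch the effectors on. Cytochrome c then builds the apoptosome with APAF1, CASP9 is activated, and XIAP blocks the caspases until DIABLO or HTRA2 displaces it. MCL1 and NOXA are short-lived proteins, and MCL1 is often described as a protein whose amount follows translation.

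mRNAs whose translation depends most on mTORC1 commonly begin with a terminal oligopyrimidine (TOP) tract, a C followed by an unbroken run of pyrimidines. The first 20 bases of the annotated transcript with the highest total RNA level are shown for 4 members because they show how near or far the 5′ end is from such a tract. They are read 5′ to 3′ from the GRCh37 transcripts, and capitals mark the unbroken run of pyrimidines that starts at the first base.
MCL1 (MCL1-202, chr1:150552067-150552086, minus strand): acttctcacttccgcttcct
BCL2L1 (BCL2L1-201, chr20:30310652-30310671, minus strand): CTCgatccgggcgatggagg
BID (BID-208, chr22:18257412-18257431, minus strand): Cactgtctgaaacagtcgcg
XIAP (XIAP-202, chrX:122993903-122993922, plus strand): gaggccctgacgtggacaca
MCL1 had 17 pyrimidines in its 20 bases but began with a purine. BCL2L1 began with C and 3 pyrimidines in a row, and XIAP had 8 pyrimidines in the window. A TOP tract, counted as a C at the first base followed by at least 4 more pyrimidines on the transcript's own strand, was found in 0 of the 10 members and in 540 of 12860 tested genes with an annotated transcript (4.20%). The annotated start is not a measured start, and BAX-201, the leading transcript of BAX, is annotated from its start codon with no 5′UTR.

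The RF libraries held between 278835 and 1574723 counts and the total RNA libraries between 78081241 and 94293744. A count of 0 in an RF library allows up to 3 counts, which is between 1.91 and 10.8 CPM (counts scaled to a common library size), and this floor covers counting error only. The biological coefficient of variation between replicates was 54.9% for RF and 5.31% for total RNA. Duct epithelium markers were present in part: 7 of 8 exceeded 1 FPKM (fragments scaled to transcript length and library depth), with KRT8, KRT18 and KRT19 between 1326 and 1765. Of the markers of other cell types, the acinar, islet and fibroblast lists summed to at most 1.67 FPKM, PTPRC, CD3E and CDH5 stayed near 0, and CD68 read 69.0 to 88.3. The total RNA libraries of DMSO replicates 1 and 2 detected 16840 and 16858 genes and the other 4 between 19751 and 19847, although these 2 were the deepest.

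Total RNA put the anti-apoptotic MCL1 first among the members and BCL2 last. In DMSO, MCL1 stood at 131 ± 1.36 FPKM (SD, n = 3), and BCL2L1, which encodes Bcl-xL, at 67.9 ± 2.0. BID at 42.1 ± 0.270 and XIAP at 39.3 ± 3.49 came next and were the only neighbours in the DMSO order whose cultures overlapped. BAD at 33.7 ± 0.958 and BAX at 28.7 ± 1.19 followed, then BAK1 at 13.8 ± 0.725, PMAIP1 at 8.02 ± 0.176 and BCL2L11 at 6.43 ± 0.433. BCL2 was at 0.106 ± 0.0106 FPKM. The order of the means was the same after rapamycin, where the cultures of BID and XIAP, XIAP and BAD, and PMAIP1 and BCL2L11 overlapped. MCL1 alone took 46.8% of all total RNA reads on the 10 members in DMSO and 46.7% after rapamycin.

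**Figure D1:**
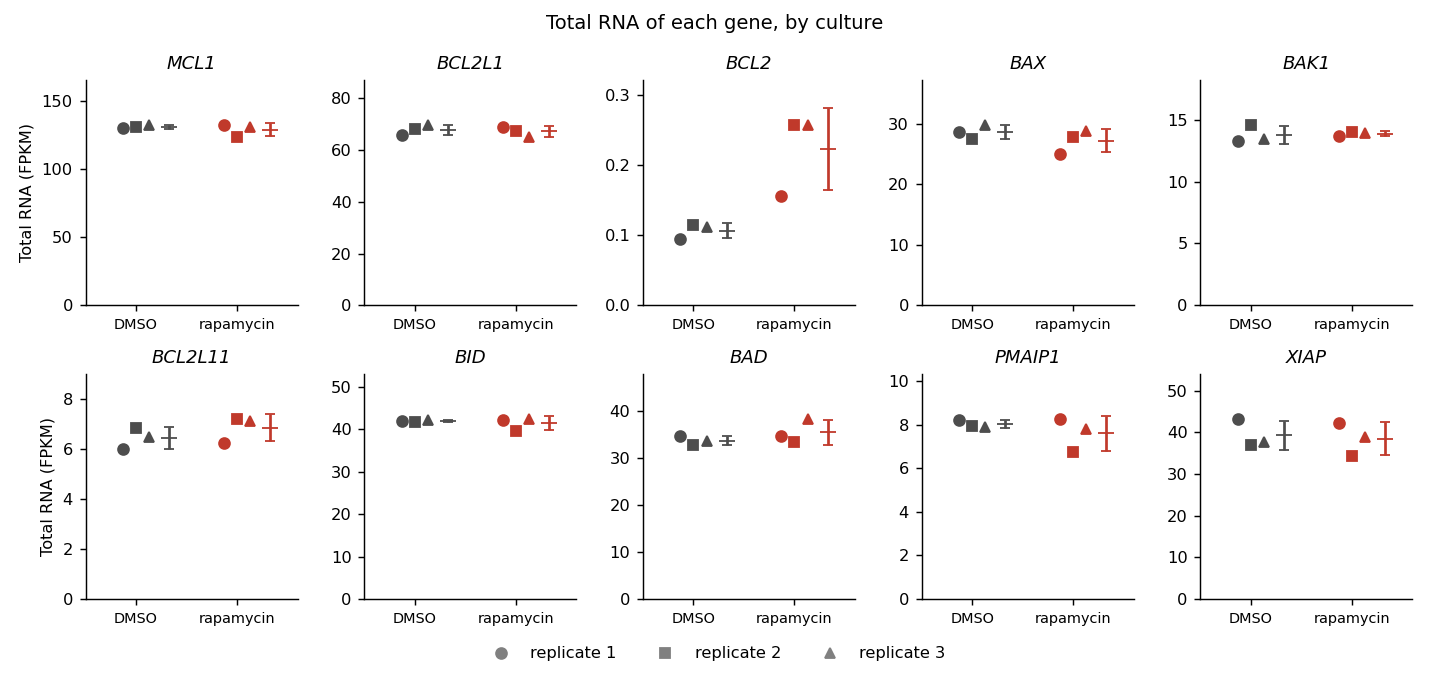
Total RNA of each of the 10 genes in FPKM (vertical axes start at 0 and differ between panels), with 1 point per culture and bars for the mean ± SD (n = 3). The treatments overlap for 9 genes and not for BCL2, which is under 0.3 FPKM throughout and overlaps in counts. The share of all genes without overlap was not computed in FPKM. In total RNA counts it was 6.61% lower and 8.22% higher.

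Footprints gave a flatter order with wide spreads. The members held 688 RF reads in the 3 DMSO cultures together and 612 in the 3 rapamycin cultures, against 264892 and 241044 total RNA reads. MCL1 had 25.9% of the RF reads in DMSO, XIAP 23.4%, BID 16.6% and BCL2L1 12.2%. Per kilobase of coding sequence, the RF level in DMSO was highest on BID at 84.0 ± 23.0 CPM and next on MCL1 at 62.5 ± 15.5, while BCL2 had the lowest at 4.03 ± 4.31 (SD, n = 3 each). Every pair of neighbours in this order overlapped, so the footprints do not rank the members one by one.

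The place of a member by its RF over RNA ratio depended on the length it was set against. Reads were counted on whole exons, UTRs included, while ribosomes sit mostly on coding sequence. In the leading transcript, coding sequence made up 8.53% of PMAIP1, 11.7% of BCL2L11, 17.4% of XIAP, 26.6% of MCL1 and 83.6% of BID, against a median of 53.9% over 12860 genes. In DMSO, the log2 ratio of RF to total RNA placed MCL1 at percentile 3.69 of these genes, BCL2L1 at 5.94 and XIAP at 18.3. For BCL2L1 this ratio was -0.96, -4.84 and -1.68 in DMSO replicates 1, 2 and 3. Its percentiles given here therefore lean on replicate 2, which had 2 RF counts for it. With RF taken per coding base and RNA per transcript base, MCL1 stood at percentile 17.0, BCL2L1 at 21.9 and XIAP at 56.1. BID went the other way, from percentile 57.1 to 34.6. Across all these genes the ratio and the coding share had a Spearman rho of 0.07, a description over genes that share the same libraries. Comparisons between treatments are within a gene and do not depend on this length.

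None of the 9 members that could be tested passed the threshold for TE, RF or total RNA. By the quasi-likelihood test of edgeR, adjusted after Benjamini and Hochberg over 13329 genes at a threshold of 0.05, 0 genes passed for TE, 0 for RF and 0 for total RNA (a background of 0% in each direction). DESeq2's Wald test called 1236 genes for TE, 5 for RF and 29 for total RNA, with 0 members among them. At an unadjusted p under 0.05, 0 of 9 members were called in any of the 3 measures. The background at that level was 6.42% of genes lower and 6.17% higher for TE, 1.92% and 1.76% for RF, and 2.51% and 3.32% for total RNA. The TE fit shares a single spread per gene over RF and total RNA libraries, with a biological coefficient of variation of 24.4%, between the 54.9% of RF and the 5.31% of total RNA. The SE of TE was below that of RF alone for each of the 9 members, so the TE intervals and p-values given here are narrower and smaller than the footprints alone support. With limma voom, which estimates the variance of each library type separately, the adjusted p for TE was at least 0.834 for each of them. Cultures of the 2 treatments overlapped for all 9 tested members in TE, RF and total RNA counts. Among all tested genes the 3 rapamycin cultures lay wholly below the DMSO cultures in 6.19% and wholly above in 4.80% for TE, in 4.21% and 5.24% for RF, and in 6.61% and 8.22% for total RNA.

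Among the anti-apoptotic genes, MCL1 had the most footprints. Its RF counts were 16, 65 and 97 in DMSO replicates 1, 2 and 3 and 58, 73 and 32 after rapamycin. Scaled to library size these were 49.2, 81.7 and 65.9 CPM against 48.1, 88.3 and 106 CPM, so the lowest and highest values both came from rapamycin cultures. The log2 change in TE was 0.20 (SE 0.31, 95% interval -0.47 to 0.87, edgeR adjusted p = 0.833). RF alone gave 0.26 (SE 0.40, 95% interval -0.59 to 1.11), which as a fold runs from 0.663 to 2.16. Total RNA of MCL1 was tight, with a log2 change of -0.03 (95% interval -0.10 to 0.04, edgeR adjusted p = 0.812).

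BCL2L1 had RF counts of 22, 2 and 60 in DMSO and 59, 20 and 18 after rapamycin. In CPM these were 67.7, 2.51 and 40.8 against 48.9, 24.2 and 59.9, and DMSO replicate 2 stood far below every other culture although its library was the third largest. The log2 change in TE was 0.37 (SE 0.70, 95% interval -1.14 to 1.88, edgeR adjusted p = 0.867), and without DMSO replicate 2 it was -0.22. The same library had 0 counts for BCL2L11 and PMAIP1. Total RNA of BCL2L1 in that culture was 68.0 FPKM, between 65.8 and 69.8 in the other DMSO cultures.

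BCL2 was too scarce in footprints to test. It had RF counts of 2, 2 and 0 in DMSO and 1, 1 and 0 after rapamycin, all at or under the floor of 3 counts, so no fold is given. Total RNA counts were 43, 42 and 79 in DMSO and 92, 69 and 89 after rapamycin, which overlap. In a test that required counts in total RNA alone, chosen after seeing the data, the log2 change in total RNA was 0.68 (SE 0.36, edgeR adjusted p = 0.588 over 19630 genes). Without DMSO replicate 3 it was 1.08 with an edgeR adjusted p of 0.00888, and with DMSO replicate 3 as the lone DMSO culture it was 0.12 with an edgeR adjusted p of 0.999. The call therefore turns on which DMSO libraries are kept. The 2009 genes whose mean total RNA count lay within 34.5 to 138, around the mean of 69 for BCL2, had median log2 levels relative to their own means of -0.32 and -0.33 in DMSO replicates 1 and 2, against 0.09 in DMSO replicate 3 and 0.11 to 0.20 in the rapamycin libraries. The part of this shift in the BCL2 values was not tested. In FPKM, BCL2 read 0.0941, 0.114 and 0.111 in DMSO and 0.156, 0.257 and 0.257 after rapamycin, which do not overlap. How many of all genes separate in this way was not computed in FPKM. In total RNA counts, 6.61% of tested genes lay wholly below and 8.22% wholly above. For BCL2, limma on log2(FPKM + 1) gave an adjusted p of 0.728. Between counts and FPKM, DMSO replicate 3 changes sides.

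The effectors differed from each other in their estimates, but neither passed the test. The RF counts of BAX were 11, 15 and 32 in DMSO and 24, 14 and 10 after rapamycin, or 33.8, 18.9 and 21.7 CPM against 19.9, 16.9 and 33.3 CPM. Its log2 change in TE was -0.10 (SE 0.34, 95% interval -0.83 to 0.64, edgeR adjusted p = 0.934), and without DMSO replicate 1 it was 0.13. The RF counts of BAK1 were 1, 7 and 19 in DMSO and 29, 9 and 4 after rapamycin. In CPM these were 3.08, 8.80 and 12.9 against 24.0, 10.9 and 13.3, with a single overlapping pair, DMSO replicate 3 above rapamycin replicate 2. Its log2 change in TE was 0.80 (SE 0.45, 95% interval -0.16 to 1.77), with an edgeR p of 0.0965 unadjusted and 0.480 adjusted, and a limma voom adjusted p of 0.838. RF alone gave 0.87 (SE 0.88, 95% interval -0.98 to 2.73). Without rapamycin replicate 1, which held 29 of its 42 rapamycin RF reads, the log2 change was 0.18 in TE and 0.445 in RF. BAK1 has the annotated processed pseudogenes BAK1P1 and BAK1P2, and reads that also align there were left out of the counts, so the BAK1 level is uncertain.

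**Figure D2:**
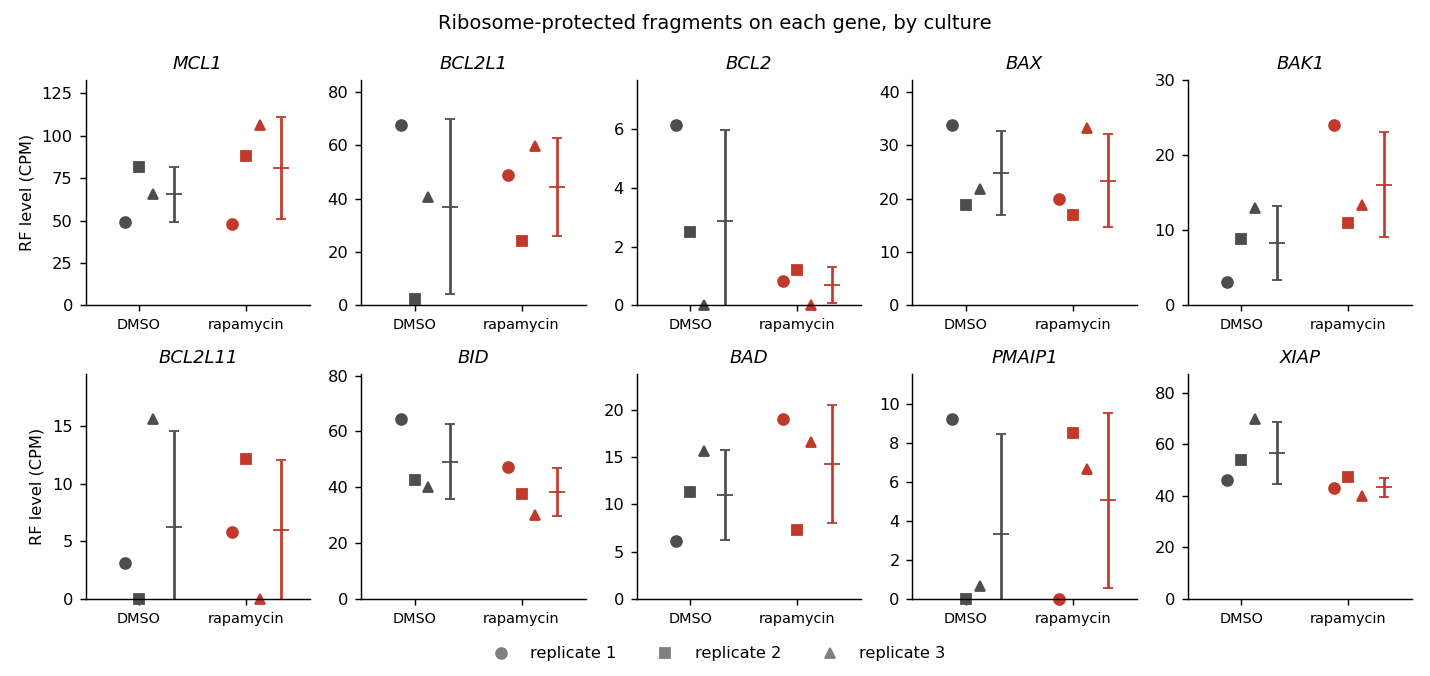
RF level of each of the 10 genes in CPM after TMM scaling (vertical axes start at 0 and differ between panels), with 1 point per culture and bars for the mean ± SD (n = 3). DMSO and rapamycin cultures overlap in each panel, and BCL2L1 in DMSO runs from 2.51 to 67.7 CPM.

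Among the BH3-only genes, BID had the most footprints. BID, which caspase-8 cleaves to link death receptors with mitochondria, was counted 21, 34 and 59 times in RF under DMSO and 57, 31 and 9 times after rapamycin. These were 64.6, 42.7 and 40.1 CPM against 47.3, 37.5 and 29.9 CPM. The highest culture was DMSO and the lowest rapamycin, but the middle values interleaved, and the log2 change in TE was -0.17 (SE 0.35, 95% interval -0.92 to 0.58, edgeR adjusted p = 0.876). BAD, whose activity is set by phosphorylation downstream of growth factor kinases, had RF counts of 2, 9 and 23 in DMSO and 23, 6 and 5 after rapamycin. In CPM these were 6.15, 11.3 and 15.6 against 19.1, 7.26 and 16.6. Its log2 change in TE was 0.09 (SE 0.51, 95% interval -0.99 to 1.18, edgeR adjusted p = 0.961), and without rapamycin replicate 1 it was -0.53. BAD shares 404 exon bases with GPR137 on the opposite strand, and whether the counting used strand is not given in the sources used here.

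BCL2L11 and PMAIP1 included cultures with no footprint at all. BCL2L11 had RF counts of 1, 0 and 23 in DMSO and 7, 10 and 0 after rapamycin, so nearly all its DMSO reads came from replicate 3. Its log2 change in TE was -0.40 (SE 0.87, 95% interval -2.26 to 1.46, edgeR adjusted p = 0.882), and without DMSO replicate 3 it was 2.93. PMAIP1 was counted 3, 0 and 1 times in DMSO and 0, 7 and 2 times after rapamycin. Its DMSO counts are all at or under the floor, so its fitted log2 change in TE of 1.33 (SE 1.38, 95% interval -1.62 to 4.28, edgeR adjusted p = 0.737) is no bound. That value was 0.50 without DMSO replicate 3, 3.14 without DMSO replicate 1 and 0.47 with limma voom. Total RNA of the same genes was measured closely, at 22.9 ± 0.0850 CPM against 24.1 ± 3.08 for BCL2L11 and 14.1 ± 0.190 against 14.1 ± 1.41 for PMAIP1 (SD, n = 3 each). A change in footprints of either gene short of several-fold was not detectable with these counts and this spread.

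XIAP had the most footprints after MCL1 and the narrowest TE interval of the 9 tested members. It binds and inhibits caspases. Its RF counts were 15, 43 and 103 in DMSO and 52, 39 and 12 after rapamycin. In CPM these were 46.1, 54.0 and 70.0 against 43.1, 47.2 and 39.9, so that a single rapamycin culture, replicate 2, lay above the lowest DMSO culture. The log2 change in TE was -0.39 (SE 0.26, 95% interval -0.95 to 0.16, edgeR adjusted p = 0.564, limma voom adjusted p = 0.960). RF alone gave -0.40 (SE 0.43), or 0.760-fold with a 95% interval from 0.407 to 1.42. The two-sided exact permutation test on log2 TE per culture gave p = 0.2 for XIAP and for BAK1, where the smallest p that 3 cultures against 3 allow is 0.1. Total RNA of XIAP had a log2 change of -0.03 (95% interval -0.13 to 0.08). XIAP has the annotated pseudogenes XIAPP1, XIAPP2 and XIAPP3, and the same limit on uniquely aligned reads applies to it.

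**Figure D3:**
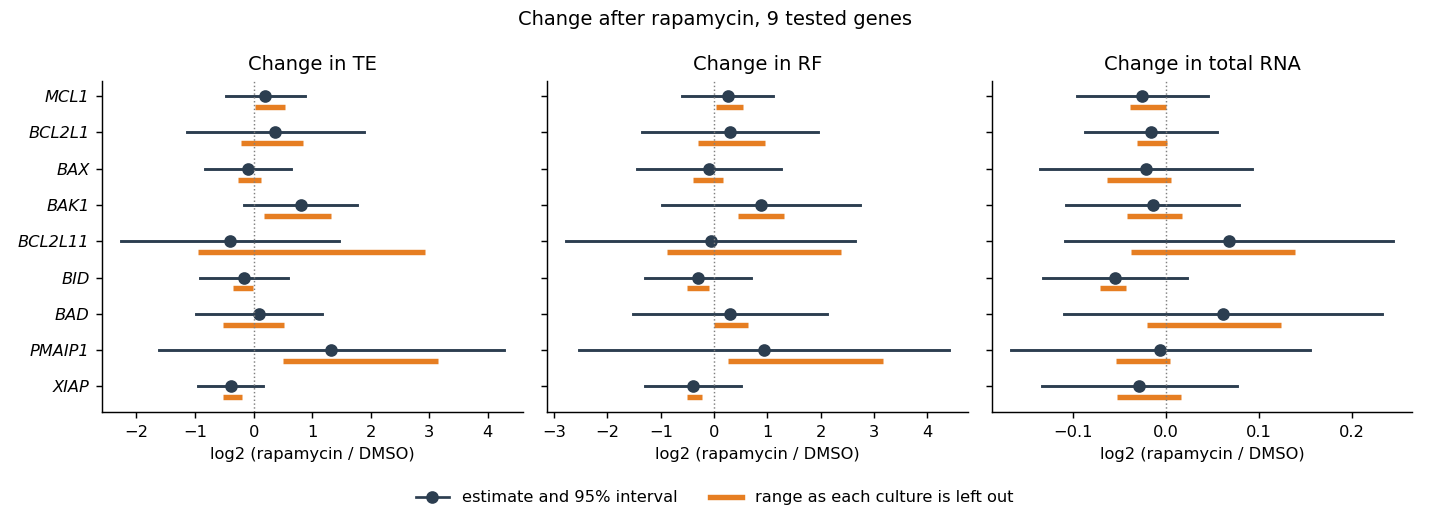
Log2 change after rapamycin in TE, RF and total RNA for the 9 tested genes, with a point and line for the edgeR estimate and its 95% interval and an orange bar for the range of estimates as each culture is left out; the horizontal scales differ between panels. Each interval includes 0, and the total RNA intervals stay within -0.17 to 0.24 while the TE intervals run from -2.26 to 4.28.

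Over the 9 tested members the TE estimates were negative for 4 and positive for 5, with a median log2 change of 0.09, against -0.06 over all 13329 genes. For total RNA, 7 were negative and 2 positive, between -0.06 and 0.07, with a median of -0.02 against 0.01 over all genes. The median SE of the members was 0.77 in RF and 0.047 in total RNA, so the total RNA of these genes was bounded far more closely than their footprints.

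Isoforms were examined in total RNA because the same members can encode proteins of different or opposed action. Isoform FPKM are estimates by the authors, and isoforms with at least 10% of the summed isoform level of a member are described. Of 53919 isoforms tested with limma on log2(FPKM + 1), 4 passed an adjusted p of 0.05 (0.00742%), and none was among the member isoforms described (smallest limma adjusted p 0.992). MCL1-202, with a coding length of 1050 bases, held 73.1% of the MCL1 total and read 96.0 ± 0.445 FPKM in DMSO and 94.4 ± 2.2 after rapamycin (SD, n = 3 each). The retained-intron transcript MCL1-203, with no annotated coding sequence, held another 23.2%, at 30.1 ± 2.31 and 30.2 ± 2.53 FPKM.

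For BCL2L1, the anti-apoptotic Bcl-xL form is encoded by BCL2L1-201 and BCL2L1-203, which share a coding length of 699 bases. BCL2L1-201 read 16.9, 14.9 and 17.7 FPKM in DMSO and 13.8, 11.03 and 15.7 after rapamycin. BCL2L1-203 read 10.1, 8.25 and 9.54 FPKM in DMSO and 12.4, 12.6 and 9.43 after rapamycin. Their estimates had opposite signs, with log2 changes of -0.28 (SE 0.13, limma adjusted p = 0.992) and 0.27 (SE 0.13, limma adjusted p = 0.992), and the cultures overlapped in each. BCL2L1-205, with a shorter coding length of 510 bases, held 11.6% of the total and read 5.34 ± 1.30 FPKM in DMSO and 5.73 ± 0.654 after rapamycin. Whether it encodes the short form Bcl-xS, which promotes cell death, was not examined. Annotated isoforms matched here made up 70.3% of the BCL2L1 gene FPKM, so part of its RNA is not described.

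PMAIP1-202 encodes the standard NOXA protein, with a coding length of 162 bases, and held 80.2% of the PMAIP1 total. It read 5.90, 6.25 and 5.96 FPKM in DMSO and 6.47, 5.90 and 7.10 after rapamycin. PMAIP1-201, with a longer coding length of 408 bases, read 1.81, 1.17 and 1.49 FPKM in DMSO and 1.36, 0.466 and 0.0603 after rapamycin. Rapamycin replicates 2 and 3 were below every DMSO culture and replicate 1 was within their range, and the log2 change was -0.69 (SE 0.30, 95% interval -1.42 to 0.05, limma adjusted p = 0.992). Both isoforms of BCL2 that passed the share limit were under the minimum of 0.5 FPKM and were not tested.

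**Figure D4:**
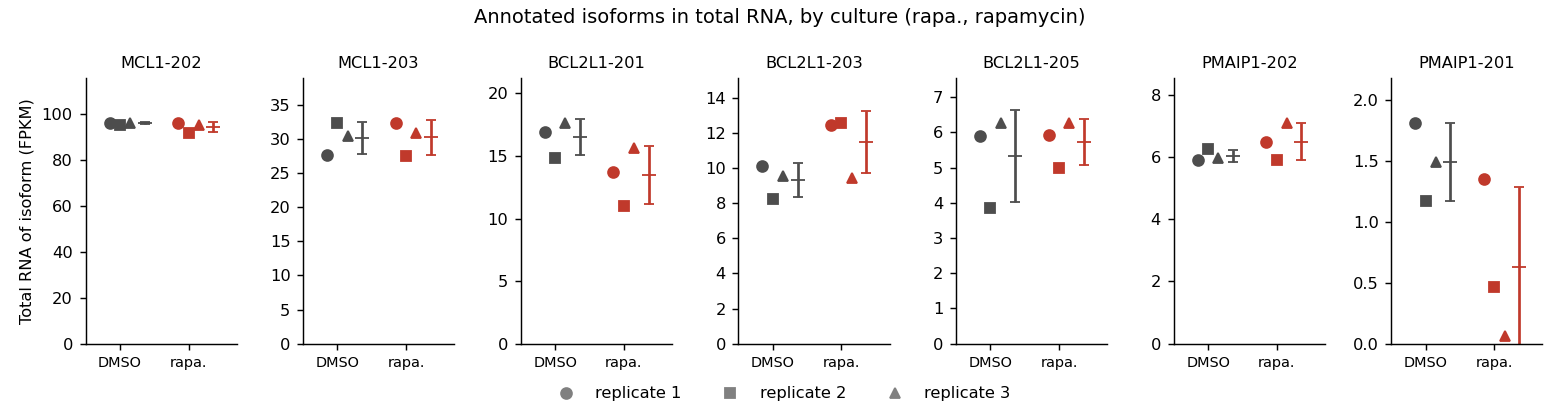
Total RNA of 7 annotated isoforms of MCL1, BCL2L1 and PMAIP1 in FPKM (vertical axes start at 0 and differ between panels), with 1 point per culture and bars for the mean ± SD (n = 3). MCL1-202 stays within 91.9 to 96.3 FPKM, while PMAIP1-201 runs from 1.17 to 1.81 in DMSO and from 0.0603 to 1.36 after rapamycin.

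The other isoforms past the share limit also missed the threshold. BAK1-201 made up 99.8% of the BAK1 total, and BAD-201 made up 74.0% of BAD. BCL2L11-204, with a coding length of 594 bases, held 68.1% and read 3.75 ± 0.0458 FPKM in DMSO and 3.97 ± 0.562 after rapamycin. BID-208, with a coding length of 585 bases, held 66.0% of the matched BID isoforms, which made up 72.2% of the BID gene FPKM, and BID-203 held 12.9%, at 3.77 ± 0.475 FPKM in DMSO and 3.98 ± 0.163 after rapamycin. BAX-201, with a coding length of 654 bases, held 55.4% of BAX and read 15.6 ± 1.24 FPKM in DMSO and 14.8 ± 0.188 after rapamycin. BAX-202 and the transcript BAX-211, annotated for nonsense-mediated decay, ranged widely between replicates, from 0.761 to 4.78 and from 0.348 to 4.73 FPKM in DMSO. BCL2L11-209, also annotated for nonsense-mediated decay, held 11.2% of BCL2L11 and read 0.798 ± 0.194 FPKM in DMSO and 0.467 ± 0.234 after rapamycin. BAD-206, a retained-intron transcript, held 10.6% of BAD. XIAP-202 held 44.1% of XIAP, and XIAP-209, which has no defined coding sequence, held 28.5%.

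The rest of the pathway was described from a list of 36 other apoptosis genes, of which 36 were in the table and 32 had enough counts to test. In TE, 15 had a negative and 17 a positive estimate, with a median log2 change of 0.05, and 0 passed the adjusted threshold (smallest edgeR adjusted p 0.231). BIK, BMF, XAF1 and CASP10 were not tested. The anti-apoptotic BCL2L2 had a log2 change in TE of 0.74 (SE 0.90) from 17 RF reads, and the effector-like BOK -0.50 (SE 0.43). BBC3 (PUMA), a BH3-only gene, had 1.10 (SE 0.76) from RF counts of 0, 0 and 8 in DMSO and 7, 6 and 2 after rapamycin.

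Among the inhibitors of apoptosis, BIRC2 had a log2 change in TE of -0.28 (SE 0.35), and BIRC5 (survivin) had 0.05 (SE 0.54). DIABLO, which displaces XIAP from caspases, had 0.65 (SE 0.50). In the apoptosome, CYCS, encoding cytochrome c, had the most footprints of the genes named here, with 480 reads in DMSO and 468 after rapamycin, and a log2 change in TE of 0.18 (SE 0.27). APAF1 had -0.31 (SE 0.67). The initiator CASP9 had 0.996 (SE 0.95), and CFLAR, which blocks caspase-8, 0.36 (SE 0.69). Each of these intervals includes 0.

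At an unadjusted p under 0.05 in TE, 2 of the 32 genes were lower and 2 higher, and they are named here after their values were seen. FADD, the adaptor of death receptors, had RF counts of 2, 4 and 19 in DMSO and 37, 22 and 9 after rapamycin. In CPM these were 6.15, 5.03 and 12.9 against 30.7, 26.6 and 29.9, with no overlap. The count of 2 in DMSO replicate 1 is under the floor of 3 counts. RF alone gave a log2 change of 1.76 (SE 0.74), and the log2 change in TE was 1.57 (SE 0.40, edgeR adjusted p = 0.231). HTRA2, a mitochondrial protease that antagonises XIAP, had 0.90 (SE 0.41, edgeR adjusted p = 0.384). Its RF cultures overlapped, with a log2 change in RF of 0.77, and its total RNA counts were lower in each rapamycin culture than in each DMSO culture, with a log2 change of -0.13 (SE 0.05, edgeR adjusted p = 0.766). FAS, a death receptor, had a log2 change in TE of -1.61 (SE 0.72, edgeR adjusted p = 0.373). The RF counts of FAS were 10, 1 and 43 in DMSO and 11, 3 and 2 after rapamycin, and its cultures overlapped in RF and TE. BIRC3, an inhibitor of apoptosis, had a log2 change in TE of -0.51 (SE 0.19, edgeR adjusted p = 0.307). These 4 of 32 stand beside a background of 6.42% lower and 6.17% higher over all genes.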

How the data were processed

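The authors deposited raw counts of uniquely aligned RF and total RNA reads on exons of protein-coding genes of GRCh37 (HISAT2 and featureCounts), and FPKM of genes and isoforms in total RNA from Cufflinks 2.2.1 cuffnorm, as the submitters' processing notes name them. Columns in the count table holding the authors' own TE, fold changes and p-values were not used. Samples were grouped by their labels. Counts were tested in R 4.3.3 with edgeR 4.0.16 (TMM within each library type, robust quasi-likelihood test) for genes with at least 10 RF and 10 RNA counts in all. TE changes were taken from the term that joins library type with treatment, over 12 libraries. Isoforms with a mean of at least 0.5 FPKM were tested with limma 3.58.1 on log2(FPKM + 1), which understates changes of low isoforms. A prior count of 2 entered the log2 TE of each culture. Alternatives included DESeq2 1.42.0. Transcripts and coordinates are from GENCODE annotation on GRCh37, in which 12860 of the 13329 tested genes had an annotated transcript that could be used. The members, the gene lists and the rule for named genes (all members, isoforms with at least 10% of a member's total, and a preset part of the pathway list) were chosen with earlier results of these data known. Values of some listed genes are left out of the text.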

Additional observations from a re-analysis of the deposited data

How the results depend on the processing

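No member passed the adjusted threshold for TE, RF or total RNA under any alternative run on the 9 tested members, and BCL2 without DMSO replicate 3 is the exception given with its values above. Counts over all genes moved more. For TE they were 1236 with DESeq2's Wald test, 1 with a replicate block and 0 to 396 in fits that dropped a culture, highest without DMSO replicate 3. For RF they were 5 with DESeq2, 20 with a count minimum of 1, 6 with the replicate block and 0 to 5 as cultures were left out. For total RNA they were 29 with DESeq2, 1 in each of 3 limma fits on FPKM (adding 1, adding 0.1, or with no minimum) and 0 to 687 as cultures were left out, highest without DMSO replicate 3. For isoforms, 328 passed with no minimum FPKM, 0 with the replicate block and 1 to 7 as cultures were left out. The cause of these shifts was not tested. The RF and RNA library of a culture were joined by treatment and replicate number. Deviations of same-numbered DMSO and rapamycin libraries correlated at -0.22 to -0.06, and those of the RF and RNA library of a culture at -0.10 to 0.01. With 3 replicates and the spread between RF libraries, such values cannot decide whether equal numbers pair the samples.

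Several log2 estimates changed sign, not only those near 0. For BCL2L11 the TE value was 0.29 with the replicate block, 0.46 with limma voom and 0.25 with a culture block, and its RF value was 0.63 with the replicate block. For BAK1 the total RNA value was 0.012 in the fits on FPKM that added 1 and 0.013 in the fit that added 0.1. Alternatives chosen after seeing the data gave TE values of 0.044 for BID and -0.24 for BAD with DMSO replicate 3 as the lone DMSO culture. With the smallest RF library of each treatment left out, TE was -0.089 for MCL1, 0.085 for BID and -0.048 for BAD, and RF was -0.12 for MCL1, 0.12 for BCL2L11, 0.037 for BID and -0.028 for BAD; PMAIP1 then had too few counts to test.

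Leaving out each culture turned these TE values: BAD from -0.53 to 0.52, BAX from -0.27 to 0.13, BCL2L1 from -0.22 to 0.85 and BCL2L11 from -0.95 to 2.93. For RF it turned BAD from -0.0044 to 0.64, BAX from -0.39 to 0.16, BCL2L1 from -0.29 to 0.96 and BCL2L11 from -0.89 to 2.37. For total RNA it turned BAD from -0.021 to 0.12, BAK1 from -0.042 to 0.016, BAX from -0.064 to 0.0047, BCL2L1 from -0.031 to 0.00055, BCL2L11 from -0.038 to 0.14, PMAIP1 from -0.054 to 0.0035 and XIAP from -0.052 to 0.016. For isoforms it turned BAD-206 from -0.027 to 0.066, BAK1-201 from -0.032 to 0.0496, BAX-211 from -0.50 to 0.55, BCL2L1-205 from -0.078 to 0.22, BCL2L11-204 from -0.032 to 0.11, BID-208 from -0.12 to 0.067, MCL1-203 from -0.055 to 0.069, XIAP-202 from -0.086 to 0.0404 and XIAP-209 from -0.12 to 0.28. RF counts and the spread between RF replicates, which went beyond counting error in each pair, limit the TE and RF statements about these genes.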
